A study of Mus musculus with 24 samples.

Results

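The immunity-related p47 GTPases were followed in BMDMs, that is, macrophages that were derived from mouse bone marrow in L-cell conditioned medium. The 6 genes were taken by symbol from the deposited table (Irgm1, ENSMUSG00000046879; Irgm2, ENSMUSG00000069874; Igtp, ENSMUSG00000078853; Iigp1, ENSMUSG00000054072; Tgtp1, ENSMUSG00000078922; Tgtp2, ENSMUSG00000078921). They make up 6 of its 24273 genes, and all 6 were among the 13901 genes with values high enough to be tested. RNA sequencing compared 2 genotypes on a C57BL/6 background, named LysM-Cre (the controls) and FosKO. By their names both carry Cre recombinase in the Lyz2 (LysM) gene, which directs it to myeloid cells, with the number of Cre copies not given for either, and FosKO mice also have Fos floxed on both alleles. The series text names the controls by the Cre alone, whereas the study describes them as also carrying a single floxed Fos allele. After a night in low serum, cells were harvested untreated (0 h) or after 0.5, 1 or 2 h with 100 ng/ml lipopolysaccharide (LPS), the bacterial ligand of TLR4. Each of the 8 groups held 3 libraries, 24 in all, and the labels do not say whether these came from separate mice, so p-values measure only the spread between these libraries.

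The p47 GTPases, or IRG proteins, are among the proteins most strongly induced by interferons in mouse cells and act against vacuolar pathogens such as Toxoplasma gondii. Irgm1, Irgm2 and Igtp (Irgm3) are the regulatory members, which sit on the cell's own membranes and hold the others in an inactive state. Iigp1 (Irga6) and the Tgtp proteins (Irgb6) are effectors, which load onto the membrane of the pathogen's vacuole and help to break it. Interferon signals reach such genes through short promoter elements, the interferon-stimulated response element (ISRE) and the gamma-activated site (GAS).

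Promoter windows are shown because the genes moved together and ISRE letters lay close to the start site in every promoter that could be searched. RefSeq promoters (build GRCm38.p6, 250 bases before to 50 bases after each start site) matched 5 of the 6 genes, and Iigp1 had no entry. The last part of the Irgm2 promoter was not found as an unbroken run in its annotated transcripts, as it was for the other 4 genes, so the Irgm2 start site is less certain. Each was searched on both strands for 3 motifs, the ISRE core (GAAA, any 2 bases, then GAAA), the GAS (TTCNNNGAA) and the AP-1 site bound by Fos and Jun proteins (TGANTCA). Below, each window is written 5′ to 3′ on the gene's own strand with 30 bases on either side of the ISRE core, and capitals mark the ISRE core and, upstream of it, the GAS.
Irgm1: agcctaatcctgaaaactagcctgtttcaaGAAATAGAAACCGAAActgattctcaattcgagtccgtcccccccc
Irgm2: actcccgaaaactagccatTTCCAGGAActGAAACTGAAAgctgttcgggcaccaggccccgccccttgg
Igtp: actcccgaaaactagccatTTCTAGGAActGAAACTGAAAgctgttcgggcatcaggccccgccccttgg
Tgtp1: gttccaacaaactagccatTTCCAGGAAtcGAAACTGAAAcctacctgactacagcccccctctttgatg
Tgtp2: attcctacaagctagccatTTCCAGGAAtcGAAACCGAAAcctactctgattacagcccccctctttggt

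These windows lie on chromosome 11, at chr11:48871405-48871480 (minus strand) for Irgm1, chr11:58214883-58214952 (plus) for Irgm2, chr11:58199492-58199561 (plus) for Igtp, chr11:48992284-48992353 (minus) for Tgtp1 and chr11:49064243-49064312 (minus) for Tgtp2. The ISRE core was present in 5 of 5 promoters, against 3.44% of all 32851 promoters of this length. It began 64 bases before the start site in Irgm2 (-64), and at -34 in Igtp, -77 in Tgtp1 and -70 in Tgtp2. Irgm1 held 2 overlapping matches, beginning at -30 and -24. The GAS was present in 4 of 5, all but Irgm1, against 8.30% of all promoters, and in each of the 4 it ended 2 bases upstream of the ISRE core. Only Irgm1 held the AP-1 letters, against 7.81% of all promoters. They are shown because Fos is the gene targeted in this study, with 20 bases on either side and the motif in capitals, at chr11:48871509-48871555 on the minus strand.
Irgm1 AP-1: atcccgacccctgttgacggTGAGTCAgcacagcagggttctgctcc

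A match of letters is a description of the sequence and not a measured binding site. The promoters of Irgm2 and Igtp were identical at 82.3% of aligned bases and those of Tgtp1 and Tgtp2 at 74.7%. The coding sequences of Tgtp1 and Tgtp2 were 99.7% identical, and 79.4% of the 50-base stretches of Tgtp1 transcripts also occurred in Tgtp2. Reads can therefore match both genes, and how the authors' counting divided them makes the separate Tgtp1 and Tgtp2 values uncertain. The annotated span of Irgm2 (chr11:58199618-58222782, GRCm38) overlaps that of Igtp (chr11:58199556-58207591) by 7974 bases on the same strand, and 11.8% of the 50-base stretches of Igtp occurred in Irgm2. Irgm1, Irgm2 and Iigp1 shared no more than 7.77% of theirs with any other gene.

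All values are the deposited normalised values on a log2 scale, on which 1 is a doubling. The exact read number of each library is unknown, although the study states a typical yield, and errors therefore come from replicate spread alone. The values resemble a regularised log, which pulls weakly expressed genes towards their mean, and differences in weak genes would then be understated. Across genes, the r of replicate libraries was 0.995 to 0.999. The 18S ribosomal transcript Rn18s-rs5 split the libraries, with 5 at 16.7 to 17.0 (LysM-Cre 0.5 h replicate 3, LysM-Cre 1 h replicates 2 and 3, and replicate 1 of FosKO at 0.5 and at 1 h) and 19 at 18.6 to 19.4. Fos mRNA was not lower in the libraries labelled FosKO except at 0.5 h (12.75 against 13.52), and it was higher at 0 h (12.60 against 11.11), at 1 h (by 1.64) and most at 2 h (by 3.29). With all exons summed in 1 value, kept and deleted exons are mixed, so Fos does not check the label. Lyz2, whose locus carries the Cre, was at 16.10 in FosKO and 10.94 in LysM-Cre at 0 h, a called difference of 5.17 (adjusted p = 9.26e-20, limma with Benjamini-Hochberg adjustment). Whether the groups differ in the number of Cre copies at this locus was not tested, and the Fos genotype, any such difference and the Lyz2 level cannot be told apart here.

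The labelled cell type was checked by its markers. Of the macrophage markers, Adgre1, Csf1r, Cd68, Itgam, Cd14 and Fcgr1 lay between 12.2 and 15.4 in every library, Mertk between 9.07 and 10.99, and a second, weak Itgam row between 5.06 and 6.17. Some of them moved with genotype. Mertk was higher in FosKO by 0.97, 1.00, 0.89 and 1.65 in the order of the times, Fcgr1 by 0.65, 0.85, 0.63 and 0.73, and Cd68 by 0.14 to 0.22, while Adgre1, Csf1r, Cd14 and the main Itgam row were lower at 0 h (-0.22 to -0.14), all of these called in limma. The main Itgam row was also called lower at 0.5 and 1 h and Adgre1 at 1 h, whereas Cd14 was called higher at 2 h (0.14). The T cell genes Cd3e and Cd3d, the NK cell gene Ncr1, the granulocyte genes Ly6g and Elane and the fibroblast gene Pdgfra lay below 0 throughout. Cd8a, Klrb1c, Cd79a, Ms4a1, Flt3 and Siglech reached no more than 2.39 and were not tested. Other genes of these lists were present. Cd4 lay between 7.57 and 8.44 and was called higher in FosKO at each time, by 0.36 to 0.45. S100a8 and S100a9 lay between 3.85 and 5.82, and S100a9 was called lower at each time (-1.07 to -0.65) and S100a8 at all times but 0.5 h. Zbtb46, at 3.40 to 6.03, was called lower at 2 h (-0.96), as was Col3a1 (-0.53), whereas Col1a1 was not called. By group means Col3a1 was nowhere high enough to be tested (1.74 to 2.28) and was higher in LysM-Cre at each time. It may thus have entered the test through the genotype where it was high, and nothing is concluded from its call. The part of these markers in the differences of the GTPases was not tested. In a bulk sample, a change in how many cells express a gene and a change in RNA per cell cannot be told apart.

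The first question was whether the genotypes differed before any LPS was added. They did, for all 6 genes. FosKO macrophages had higher levels of the 3 regulatory GTPases by 1.84-fold to 1.91-fold and of the 3 effectors by 2.51-fold to 3.01-fold. In each of the 6 genes the 3 FosKO libraries lay above the 3 LysM-Cre libraries.

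Irgm1, the regulator needed for resistance to many intracellular bacteria, read 12.25, 12.18 and 12.14 in LysM-Cre replicates 1 to 3 and 12.84, 13.16 and 13.22 in FosKO. The lowest FosKO library still exceeded the highest control. The difference was 0.88 ± 0.10 (SE, n = 3 per group, adjusted p = 1.08e-06 in limma). Every adjusted p of this report is from limma with Benjamini-Hochberg adjustment over all tested genes, unless it is marked as exact permutation. Irgm2 read 11.32, 11.24 and 11.22 against 11.90, 12.25 and 12.42, a difference of 0.93 ± 0.13 (adjusted p = 8.18e-06). Igtp, needed for resistance to Toxoplasma gondii, read 10.41, 10.37 and 10.28 against 10.97, 11.33 and 11.52, a difference of 0.92 ± 0.13 (adjusted p = 7.77e-06). In these 3 genes the control libraries spread over less than the FosKO libraries, among which replicate 1 was the lowest and replicate 3 the highest.

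Among the effectors, Iigp1 read 7.98, 7.82 and 8.0 in LysM-Cre and 9.01, 9.46 and 10.11 in FosKO. The difference was 1.59 ± 0.26 (adjusted p = 7.45e-05). Tgtp2 read 9.74, 9.45 and 9.59 against 10.63, 11.11 and 11.57, a difference of 1.51 ± 0.23 (adjusted p = 2.57e-05). For both genes, FosKO replicate 3 lay about as far above replicate 1 as replicate 1 lay above the controls. Tgtp1, the weakest of the 6, read 5.61, 5.23 and 5.26 against 6.50, 6.12 and 7.46, a difference of 1.33 ± 0.35 (adjusted p = 0.0056). This call rested on FosKO replicate 3: without that library the Tgtp1 difference was 0.94 (adjusted p = 0.0519), and it was the only genotype call lost when any single library was left out.

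**Figure D1:**
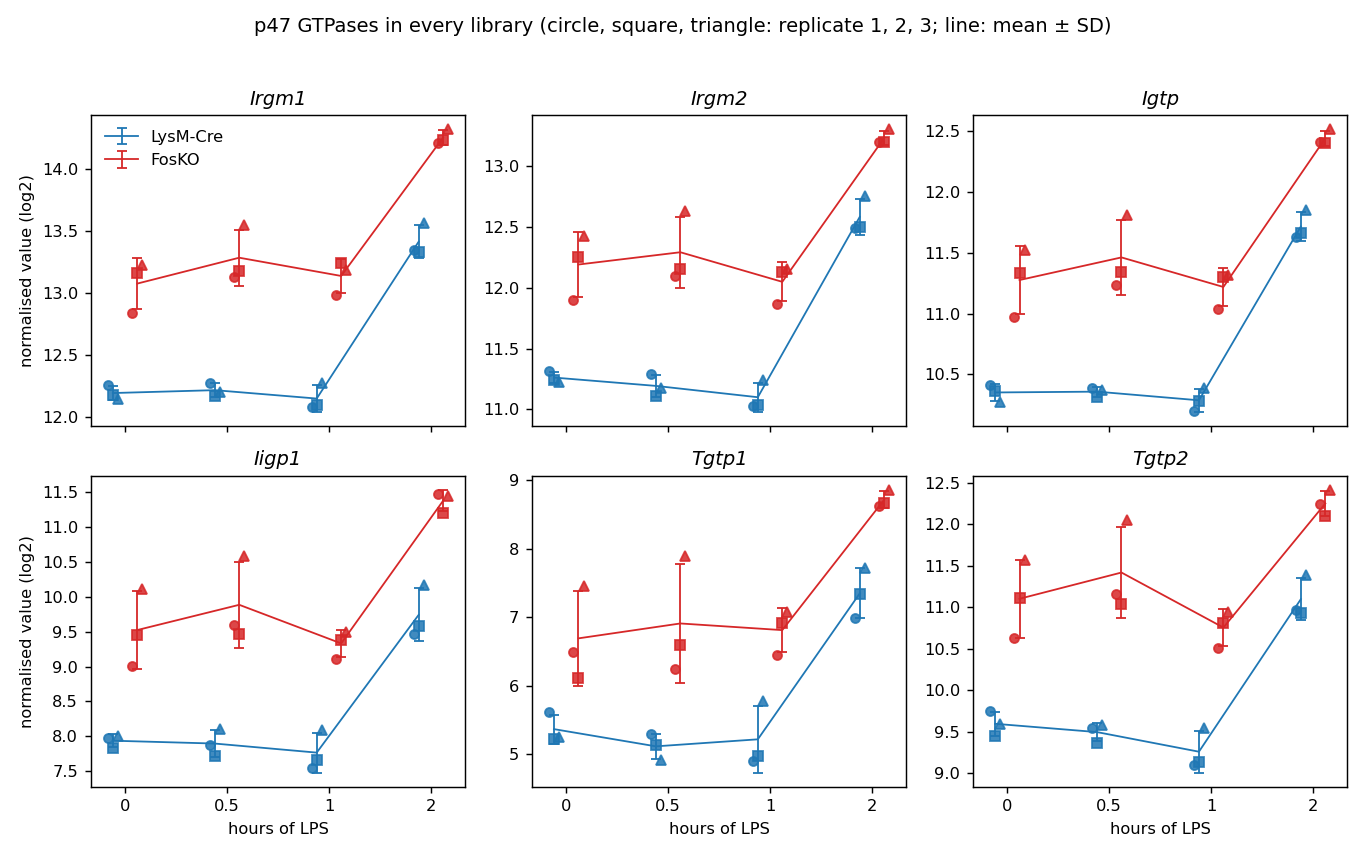
Deposited log2 values (vertical axes, each gene on its own range) of the 6 genes against hours of LPS (horizontal axes), with LysM-Cre in blue and FosKO in red, a symbol per library and lines through group means with SD, n = 3. The FosKO libraries lie above the LysM-Cre libraries of the same time in every panel, and both genotypes rise between 1 and 2 h.

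The same comparison at the 3 LPS times gave the same call for each gene. At each of the 4 times, 6 of 6 genes were called higher in FosKO. Over all tested genes the share called higher was 19.5%, 21.2%, 18% and 24.4% in the order of the times. The groups did not overlap in 6 of 6 genes at each time, against 24%, 25.9%, 23.7% and 28.9% of all tested genes that lay wholly higher in FosKO at 0, 0.5, 1 and 2 h. In the same order the median difference of the 6 genes was 1.13, 1.45, 1.24 and 1.00, while the median over all genes lay between -0.0032 and 0.004. Ranked from the largest rise among the 13901 genes at 0 h, Iigp1 was 34th, Tgtp2 49th, Tgtp1 74th, Irgm2 175th, Igtp 176th and Irgm1 202nd.

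At 0.5 h, Irgm1 read 12.28, 12.17 and 12.20 in LysM-Cre and 13.13, 13.17 and 13.54 in FosKO, a difference of 1.07 (95% interval 0.86 to 1.28, adjusted p = 6.48e-08). Iigp1 read 7.87, 7.71 and 8.10 against 9.60, 9.47 and 10.59, a difference of 1.99 (1.44 to 2.54, adjusted p = 3.91e-06), and was the 18th largest rise of all genes. FosKO replicate 3 was the highest library for all 6 genes at this time. The differences of the other genes were 1.10 in Irgm2 (adjusted p = 6.89e-07), 1.10 in Igtp (adjusted p = 5.73e-07), 1.79 in Tgtp1 (adjusted p = 3.31e-04) and 1.92 in Tgtp2 (adjusted p = 9.18e-07).

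At 1 h the differences were 0.99 in Irgm1, 0.95 in Irgm2 and 0.93 in Igtp, against 1.57 in Iigp1, 1.60 in Tgtp1 and 1.50 in Tgtp2 (adjusted p between 2.45e-07 and 0.0013). Tgtp2 read 9.09, 9.13 and 9.55 in LysM-Cre and 10.51, 10.81 and 10.94 in FosKO at this time. Because 18S content divided the 0.5 and 1 h libraries, the differences were also taken within each 18S set. Among libraries with high 18S they ran from 1.14 to 2.24 at 0.5 h (2 FosKO against 2 LysM-Cre) and from 1.11 to 2.10 at 1 h (2 against 1). Among those with low 18S they ran from 0.86 to 1.59 at 0.5 h (1 against 1) and from 0.71 to 1.24 at 1 h (1 against 2). All 6 genes were higher in FosKO within both sets. These small sets were not tested.

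At 2 h, Irgm1 read 13.35, 13.33 and 13.56 in LysM-Cre and 14.21, 14.23 and 14.32 in FosKO, a difference of 0.84 (0.63 to 1.05, adjusted p = 1.15e-06). The difference was 0.65 in Irgm2 (0.38 to 0.91, adjusted p = 2.78e-04) and 0.73 in Igtp (0.46 to 0.99, adjusted p = 7.66e-05). These 3 genes and Tgtp2 had their smallest genotype difference at this time. Among the effectors, Iigp1 read 9.46, 9.59 and 10.17 against 11.48, 11.21 and 11.45, a difference of 1.64 (1.09 to 2.19, adjusted p = 3.39e-05). Tgtp1 read 6.99, 7.34 and 7.72 against 8.63, 8.67 and 8.85, a difference of 1.37 (0.63 to 2.10, adjusted p = 0.0033). Tgtp2 read 10.97, 10.94 and 11.39 against 12.24, 12.10 and 12.41, a difference of 1.15 (0.68 to 1.63, adjusted p = 3.01e-04). LysM-Cre replicate 3 was the highest control for all 6 genes at 2 h and still lay below every FosKO library.

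**Figure D2:**
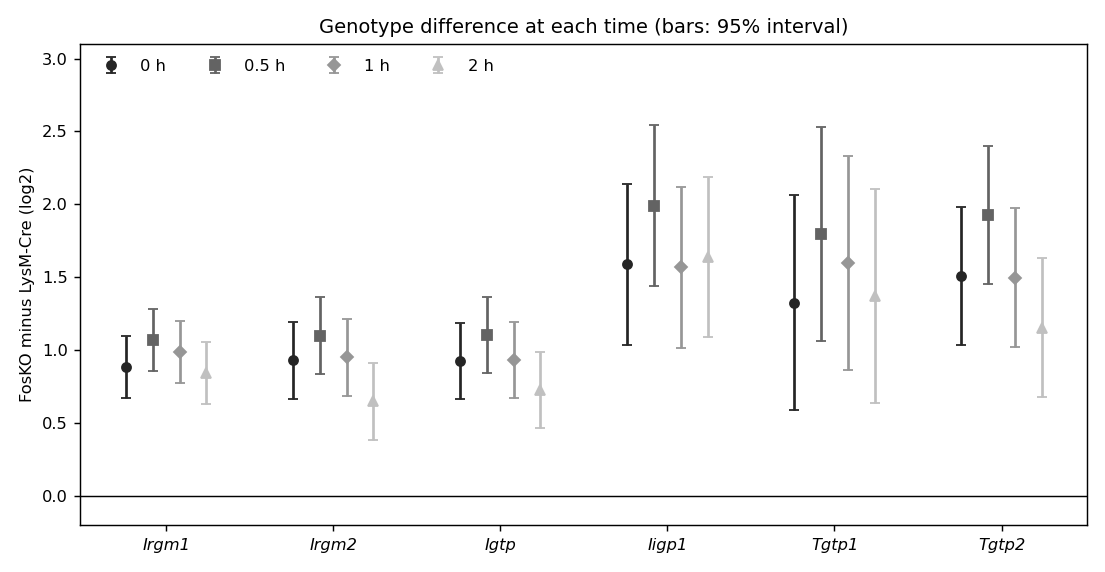
FosKO minus LysM-Cre on the log2 scale (vertical axis) for each gene (horizontal axis) at 0, 0.5, 1 and 2 h, with 95% intervals from the limma fit. Every interval lies above 0, and the effectors Iigp1, Tgtp1 and Tgtp2 sit higher, at 1.15 to 1.99, than the regulators, at 0.65 to 1.10.

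Whether the regulators and the effectors differed in the size of this genotype difference was tested for the 15 pairs of genes, each by a two-sided exact permutation of the genotype labels within times over 160000 assignments. Averaged over the 4 times, the difference was 0.95 in Irgm1, 0.91 in Irgm2 and 0.92 in Igtp, and 1.70 in Iigp1, 1.52 in Tgtp1 and 1.52 in Tgtp2. Each of these 3 effectors exceeded each of the 3 regulators, by 0.58 to 0.79 in 9 of 9 pairs (exact permutation, adjusted p between 3.13e-05 and 8.12e-04 over the 15 pairs). For Iigp1 and Tgtp2 against the 3 regulators the unadjusted value was 1.25e-05, the smallest this permutation can give. The direction held at each of the 4 times in all 9 pairs. This permutation treats the libraries of different times as separate. With same-numbered libraries of a genotype kept together over the times, 3 units stand against 3, and each of the 9 pairs gave an exact permutation p of 0.1, the smallest that design allows. Iigp1 also exceeded Tgtp2, by 0.18 (exact permutation, adjusted p = 0.0042), most of it at 2 h (0.48). The remaining 5 pairs were not called: the regulators differed among themselves by no more than 0.04, Iigp1 and Tgtp1 by 0.18 (exact permutation, adjusted p = 0.15), and Tgtp1 minus Tgtp2 gave -0.0001 (exact permutation, adjusted p = 0.999). These sizes are on the deposited scale, whose shrinkage of weak genes, if present, would act most on Tgtp1. The effectors compared are Iigp1 and the nearly identical Tgtp1 and Tgtp2, so the result covers these genes and not effectors as a class. On the list of other p47 loci given below, 9 were tested and differed at 0 h by 0.02 to 1.12. They were not part of these pairs.

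The next question was how the genes responded to LPS within a genotype. None was called in the first hour, and all 6 were higher at 2 h. The comparisons of one genotype share its 0 h libraries. At 0.5 h, 0 of 6 genes were called in LysM-Cre and 0 of 6 in FosKO, against 7.24% and 5.92% of all tested genes called in either direction. At 1 h it was again 0 of 6 in LysM-Cre and 0 of 6 in FosKO, against 35.8% and 32.6% of all genes. None of these 24 tests reached an unadjusted p of 0.05 either, in limma. The differences from 0 h ran from -0.34 to 0.02 in LysM-Cre and from -0.35 to 0.36 in FosKO.

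The intervals bound what could have been missed. For Irgm1 the change at 1 h was -0.04 in LysM-Cre (-0.26 to 0.17) and 0.06 in FosKO (-0.15 to 0.28). For Iigp1 it was -0.17 (-0.72 to 0.38) and -0.19 (-0.74 to 0.36). Tgtp2 had the largest falls, -0.34 in LysM-Cre (-0.81 to 0.14) and -0.35 in FosKO (-0.82 to 0.13). Scaling mattered for the regulators: after quantile normalisation the LysM-Cre changes at 1 h were called in Irgm1 (-0.23, adjusted p = 0.0358) and Irgm2 (-0.29, adjusted p = 0.0483).

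At 2 h of LPS, 6 of 6 genes were higher than at 0 h in LysM-Cre and 6 of 6 in FosKO, against 30.6% and 32.6% of all tested genes called higher. In LysM-Cre the regulators rose from group means of 12.19 to 13.41 in Irgm1 (1.22, adjusted p = 1.47e-09), from 11.26 to 12.58 in Irgm2 (1.32, adjusted p = 1.21e-08) and from 10.35 to 11.72 in Igtp (1.37, adjusted p = 6.36e-09). The effectors rose by 1.81 in Iigp1 (adjusted p = 4.79e-06), 1.98 in Tgtp1 (adjusted p = 5.24e-05) and 1.50 in Tgtp2 (adjusted p = 7.45e-06). These are 2.33-fold to 3.95-fold rises. In 6 of 6 genes the 2 h libraries lay wholly above the 0 h libraries, against 33.9% of all tested genes.

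In FosKO the rises at 2 h were 1.18 in Irgm1 (adjusted p = 2.47e-09), 1.04 in Irgm2 (adjusted p = 3.91e-07), 1.17 in Igtp (adjusted p = 6.59e-08), 1.86 in Iigp1 (adjusted p = 3.20e-06), 2.03 in Tgtp1 (adjusted p = 3.94e-05) and 1.15 in Tgtp2 (adjusted p = 1.68e-04). The 2 h libraries again lay wholly above the 0 h libraries in 6 of 6 genes, against 33.3% of all tested genes. Quantile normalisation lowered the FosKO rises of Irgm1 to 0.72 and of Irgm2 to 0.66, both still called. The rise took place between 1 and 2 h. Over that step, 6 of 6 genes were called higher in LysM-Cre, by 1.27 to 2.13, and 6 of 6 in FosKO, by 1.12 to 2.05, against 27.5% and 27.2% of all genes called higher.

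**Figure D3:**
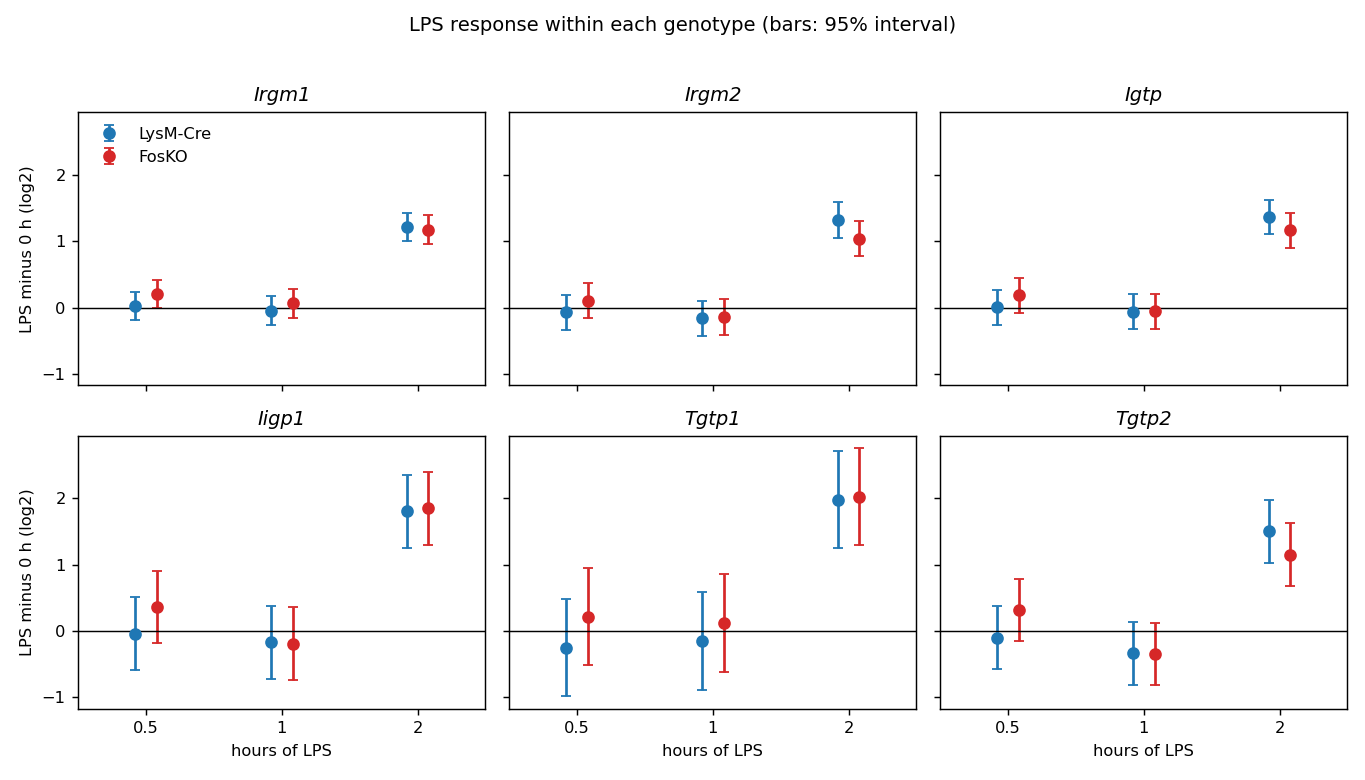
Change from 0 h on the log2 scale (vertical axes) after 0.5, 1 and 2 h of LPS (horizontal axes) in LysM-Cre (blue) and FosKO (red), with 95% intervals from the limma fit. Intervals at 0.5 and 1 h include 0 in all 6 genes, and those at 2 h lie above 0 in both genotypes.

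The difference between the genotypes in this response was then tested as an interaction. At 0.5 h, 0 of 6 genes were called, against 0.115% of all genes. At 1 h it was 0 of 6 against 1.22%, and at 2 h 0 of 6 against 15%. None had an unadjusted p under 0.05 in limma. At 2 h the response of FosKO minus that of LysM-Cre was -0.04 in Irgm1 (-0.34 to 0.26), -0.28 in Irgm2 (-0.66 to 0.09), -0.20 in Igtp (-0.57 to 0.17), 0.05 in Iigp1 (-0.73 to 0.83), 0.04 in Tgtp1 (-1.0 to 1.08) and -0.35 in Tgtp2 (-1.03 to 0.32). The intervals of the effectors are wide, so a moderate difference in their response was not detectable with 3 libraries per group.

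The untreated FosKO level can be set beside the LPS-induced control level. Tgtp2 averaged 11.10 ± 0.47 (SD, n = 3) in FosKO at 0 h and 11.10 ± 0.25 in LysM-Cre at 2 h. The other 5 genes averaged lower in untreated FosKO cells than in the LPS-treated controls. Iigp1 averaged 9.52 ± 0.55 and 9.74 ± 0.38, and Tgtp1 6.69 ± 0.69 and 7.35 ± 0.37. Among the regulators, Irgm1 was at 13.07 ± 0.20 and 13.41 ± 0.13, Irgm2 at 12.19 ± 0.27 and 12.58 ± 0.15 and Igtp at 11.28 ± 0.28 and 11.72 ± 0.12. These pairs of groups differ in both genotype and treatment and were not tested.

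To compare levels between genes, the linear values were divided by the length of each gene's annotated exons and given as log2 of the value per kilobase. In LysM-Cre at 0 h the level was 9.65 ± 0.06 (SD, n = 3) in Irgm1, 9.38 ± 0.05 in Irgm2 and 9.34 ± 0.07 in Igtp. It was lower in the effectors, at 8.04 ± 0.15 in Tgtp2, 5.39 ± 0.10 in Iigp1 and 3.68 ± 0.21 in Tgtp1. Irgm2 and Igtp did not differ beyond their spread, and the other neighbours in this order lay further apart than their SDs. The order Irgm1, Igtp, Irgm2, Tgtp2, Iigp1, Tgtp1 held in 16 of 24 libraries, and in the other 8 only Irgm2 and Igtp changed places. All 3 regulators thus lay above all 3 effectors in each of the 24 libraries, whatever the genotype or time.

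The 6 genes also moved together from library to library. Across the 24 libraries their pairwise Pearson r ran from 0.955 (Tgtp1 with Tgtp2) to 0.998 (Irgm2 with Igtp), and after each group's mean was removed from 0.781 (Irgm1 with Tgtp1) to 0.987 (Irgm1 with Irgm2). These points share their libraries and, for some pairs, reads. The mean deviation of the 6 genes from their group mean was largest in FosKO replicate 3, at 0.41 at 0 h and 0.54 at 0.5 h. LysM-Cre replicate 3 stood highest for all 6 genes at 1 h and at 2 h, by 0.26 at both times. Guanylate-binding protein genes deviated the same way in these FosKO libraries, by 0.32 and 0.42, and in the LysM-Cre libraries by 0.06 and 0.19.

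**Figure D4:**
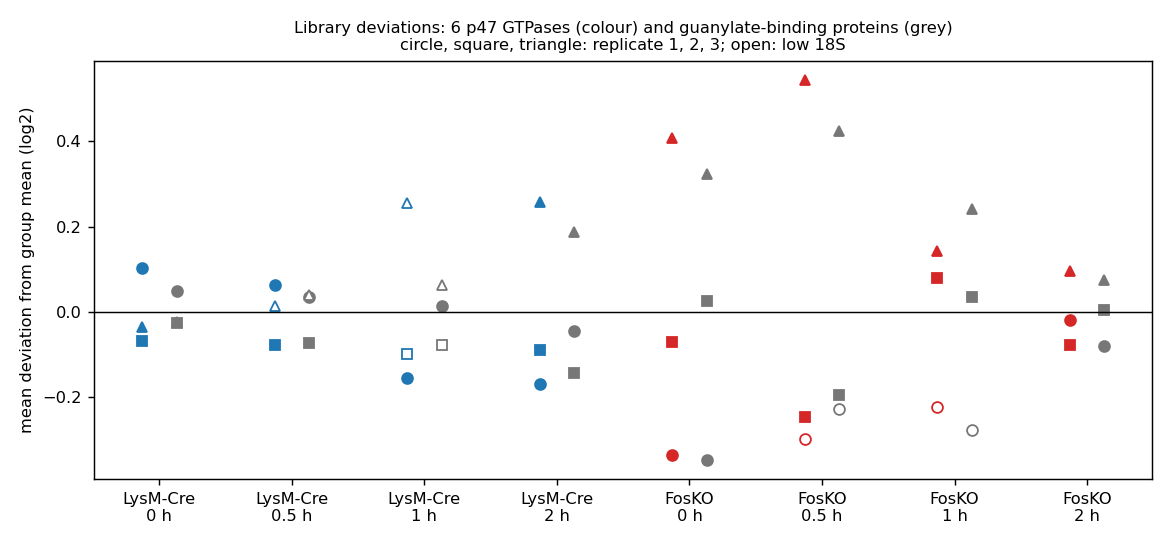
Mean deviation of each library from its group mean on the log2 scale (vertical axis) for the 6 p47 genes (blue in LysM-Cre, red in FosKO) and the guanylate-binding protein genes (grey), by group (horizontal axis), with open symbols for libraries low in 18S. FosKO replicate 3 at 0 and 0.5 h lies furthest above its group, at 0.41 and 0.54 for the p47 genes.

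The genes whose pattern over the 24 libraries was most like each member's are given as a description. For Irgm1 these were Cmpk2 (r = 0.997), Ifi47 (0.996) and Trim30c (0.995). For Irgm2 they were Dtx3l (0.998), Gm12250 (0.996) and Trim30c (0.996), and for Igtp Dtx3l (0.996), Trim30c (0.996) and Gm12250 (0.995). Ifi47 (Irgd) and Gm12250 (Irgb10) are themselves p47 GTPases. Iigp1 was nearest to Ifi47 (0.992), Gbp4 (0.990) and Casp1 (0.988). Tgtp1 was nearest to Trim30c (0.977), AW112010 (0.976) and Cpsf2 (0.975), and Tgtp2 to Apobec3 (0.996), Tnfsf10 (0.995) and Gbp4 (0.993).

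The wider pathway was described by fixed lists, whose counts stand beside 19.5%, 21.2%, 18% and 24.4% of all tested genes called higher in FosKO at the successive times and 15.9%, 19.7%, 15.9% and 20.3% called lower. The first holds other p47 loci, without Ifi47. Of its 12 loci, 11 were in the table and 9 were tested. In FosKO 7, 8, 7 and 8 of the 9 were higher at the successive times, with median differences of 0.60, 0.71, 0.71 and 0.78. At 0 h the largest differences were 1.12 in Gm12250 (adjusted p = 1.30e-06) and 0.89 in Gm4951 (adjusted p = 3.45e-04). The lowest were 0.02 in Irgq (adjusted p = 0.64) and 0.33 in F830016B08Rik (adjusted p = 0.17). Irgq was the only member of this list called lower, at 2 h (-0.09, adjusted p = 0.036). Several of these loci are close copies of each other, which makes their separate values uncertain.

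Upstream of the p47 genes stand the interferon receptors, their kinases and the STAT and IRF factors, and all 13 were tested. Over the 4 times in order, 10, 10, 6 and 8 of these were higher in FosKO, and 1, 1, 3 and 3 were lower. Stat2, which carries type I interferon signals to the nucleus, had the largest difference at 0 h (0.93, adjusted p = 4.86e-07). The lowest values at 0 h, counting the sign, were those of the receptor chains Ifngr1, which was called lower (-0.18, adjusted p = 3.33e-04), and Ifnar2 (-0.04, adjusted p = 0.33).

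Interferon genes themselves followed another time course. At 0 h 0 of 5 tested ligand genes were called in limma (0 at an unadjusted p of 0.05), although 4 of them, all but Ifnb1, lay wholly higher in FosKO by 0.02 to 0.07, as did 24% of all tested genes. At 0.5 h 1 of 5 was higher in FosKO, and at 1 and 2 h 5 of 5. By group means, Ifna6 was high enough to be tested only in FosKO at 1 and 2 h (4.14 and 5.25, against 2.01 to 2.16 in LysM-Cre). It thus entered the test through the groups where it was high, and nothing is concluded from its calls there. Ifnb1, which encodes IFN-β, averaged 6.08 in LysM-Cre and 6.17 in FosKO at 0 h, a difference of 0.10 (-0.17 to 0.36, adjusted p = 0.61). It then reached 6.34, 8.99 and 9.88 in LysM-Cre and 8.03, 12.18 and 12.89 in FosKO at 0.5, 1 and 2 h, a difference of 3.18 at 1 h (adjusted p = 1.45e-13). The 6 GTPases were called higher in FosKO at 0 h, when Ifnb1 was not, and also at 1 h, when Ifnb1 was too. At 0 h Ifnb1 lay near its lowest value in any library (6.04), where shrinkage, if present, would understate a difference. The missing Ifnb1 call at 0 h therefore does not show equal levels. Within each genotype, the 6 were not called at 1 h of LPS against 0 h, when Ifnb1 was already above its 0 h level. The part of Ifnb1 in the levels of the GTPases was not tested. Ifna5 differed at 0 h by 0.07 (adjusted p = 0.67), Ifna4 by 0.03 (adjusted p = 0.91) and Ifna6 by 0.02 (adjusted p = 0.93), and reads from such close copies can be split between them. Ifng lay between -1.52 and -1.33 in every library and was not tested.

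Guanylate-binding proteins (GBPs), which gather on the same vacuoles as the p47 GTPases, came in 12 tested rows, as Gbp6 had 2. In order of time, 9, 9, 8 and 10 rows were higher in FosKO and 0 were lower, with median differences of 1.06, 1.26, 1.04 and 0.95. The largest at 0 h were 1.81 in the more abundant Gbp6 row (adjusted p = 1.11e-05) and 1.56 in Gbp2 (adjusted p = 7.19e-06). The lowest were 0.01 in the weak Gbp6 row (adjusted p = 0.99) and 0.09 in Gbp2b (adjusted p = 0.71). The counts of higher rows include Gbp11, called at all times but 1 h. By group means it was high enough to be tested only in FosKO at 0.5 and 2 h (2.46 and 3.43, against 1.69 to 1.80 in LysM-Cre). It thus entered the test through the genotype where it was high, and nothing is concluded from its calls.

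The autophagy conjugation genes, whose products are needed to place the GTPases on vacuoles, had a median difference of 0.08 at 0 h. Of 11 tested, 6, 6, 5 and 6 were higher in order of time, and 1, 1, 1 and 2 were lower. Atg5 (0.23, adjusted p = 6.62e-05) and Atg16l1 (0.21, adjusted p = 0.0079) had the largest differences at 0 h. Gabarapl2 (-0.16, adjusted p = 6.86e-04) and Gabarapl1 (-0.07, adjusted p = 0.16) had the lowest at that time, counting the sign. Among the ubiquitin ligases and adaptors recruited after the GTPases, 5 of 5 were higher in FosKO at 0 h. At each later time 3 of 5 were higher, and the number lower was 0, then 1 and 1. Optn (0.61, adjusted p = 1.61e-07) and Trim21 (0.51, adjusted p = 3.99e-06) had the largest differences at 0 h, and Nbr1 (0.10, adjusted p = 0.017) and Traf6 (0.12, adjusted p = 0.0064) the lowest.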

How the data were processed

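RNA from 24 BMDM libraries was sequenced by the authors, who mapped reads with STAR 2.5.2a and counted them per gene with RSEM 1.2.31 on GRCm38 and normalised with DESeq2 1.16.1 (submitters' processing notes). The study names RefSeq genes whereas the table carries Ensembl identifiers. The authors deposited log2 normalised values, one per gene and library; the exact transform is not stated, whole reads were not recovered, and the depth of each library is unknown beyond the typical yield that the study states.

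The members and gene lists were chosen with earlier results of these data known. Genes with 2 raised to their value of at least 5 in at least 3 libraries were tested (13901 of 24273). All libraries entered one limma 3.58.1 fit (R 4.3.3) with 8 group means, 16 residual degrees of freedom and a variance trend, from which 15 comparisons were drawn. Each comparison's p-values received Benjamini-Hochberg adjustment across the 13901 genes and were called under 0.05. For a single comparison of 3 and 3 libraries the smallest exact permutation p is 0.1. The pairs of members used the exact permutation over all times described with them. The fit was tested on simulated data. Named genes are the 6 members, the 3 genes most like each, and the 2 highest and 2 lowest (signed) genotype differences at 0 h of each list; a few genes that this rule or the marker lists would name are not reported here. Sequences are from RefSeq (GRCm38.p6), and gene spans, exon lengths and transcripts from GENCODE on the same build. Alternatives were quantile and TMM scaling (trimmed mean of M-values, computed on the linear values), a pseudocount of 1, no filter and a filter at 50, no variance trend, a replicate block, 18S terms, only the groups compared, and each library left out.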

Additional observations from a re-analysis of the deposited data

How the results depend on the processing

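All 6 members stayed higher in FosKO at every time and higher at 2 h of LPS than at 0 h and 1 h, and stayed called, under every alternative run except Tgtp1 at 0 h without FosKO 0 h replicate 3 (0.94, adjusted p = 0.0519 in limma). Its values with single libraries left out ran from 0.94 to 1.61. Genotype differences ran from 0.60 to 2.20 with single libraries left out and from 0.47 to 2.24 under the other settings, and those of 2 h against 0 h from 0.66 to 2.41. The same 10 of 15 pairs were called under each planned setting; with same-numbered libraries permuted together over the times, chosen after seeing the data, 0 could be called, since p cannot go below 0.1. Same-numbered libraries deviated together by the rule used (every r over 0.1) for LPS 0.5 h in FosKO only (0.13 to 0.27). A weaker link was seen elsewhere within a genotype. In LysM-Cre, for LPS 1 h, LPS 2 h and 2 h against 1 h, 3 of 3 libraries matched their own number best, at r of 0.017 to 0.0895. In the other comparisons within a genotype 2 of 3 did, and between genotypes 0 to 2 of 3. A replicate block, as a fixed term or as a random one within genotype, left the calls at 6 of 6 and 0 of 6 as before. Neither block moved a count of calls over all genes by more than 1.5 times (the response difference at 0.5 h had 16 calls and then 19 or 21, LPS 0.5 h in FosKO 823 and then 960 or 1071). In LysM-Cre at 1 h against 0 h, where 0 of 6 were called, quantile normalisation called 2 and a fit of only the groups compared called 1 (Irgm2, -0.16, adjusted p = 0.0476 in limma).

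Other changes of sign concern values that were not called as reported, and the cause was not tested. Irgm1 in LysM-Cre at 1 h is among them through the 18S term. Quantile normalisation kept its sign and called it (-0.23). With quantile normalisation, against 0 h, Irgm1 in LysM-Cre at 0.5 h was -0.0601, Igtp -0.04, and Irgm1 in FosKO at 1 h -0.14. The difference in response became -0.0005 in Irgm2 and -0.0087 in Igtp at 1 h and -0.15 in Iigp1 and -0.016 in Tgtp1 at 2 h, Irgm1 minus Igtp became -0.0083 and Tgtp1 minus Tgtp2 0.0598. TMM gave -0.0008 in Igtp at 1 h. With the 18S set as a term, LysM-Cre at 1 h gave 0.018 in Irgm1, 0.011 in Igtp and 0.077 in Tgtp1, and the difference in response -0.021 in Irgm2 and -0.0302 in Igtp. High 18S libraries alone gave -0.0004 in Igtp (LysM-Cre, 0.5 h), 0.032 in Igtp (FosKO, 1 h), differences in response at 1 h of 0.30 in Iigp1 and 0.27 in Tgtp2, and Tgtp1 minus Tgtp2 of 0.071.

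With single libraries left out, the ranges for the difference in response were, at 0.5 h, -0.021 to 0.85 in Tgtp1. At 1 h they were -0.011 to 0.18 in Irgm1, -0.13 to 0.14 in Irgm2, -0.14 to 0.13 in Igtp, -0.28 to 0.27 in Iigp1, -0.018 to 0.65 in Tgtp1 and -0.25 to 0.22 in Tgtp2. At 2 h they were -0.16 to 0.033 in Irgm1, -0.21 to 0.34 in Iigp1 and -0.24 to 0.43 in Tgtp1. Against 0 h in LysM-Cre they were -0.0072 to 0.055 in Irgm1, -0.031 to 0.037 in Igtp and -0.15 to 0.0503 in Iigp1 at 0.5 h, and -0.43 to 0.011 in Tgtp1 at 1 h. In FosKO they were -0.067 to 0.22 in Irgm2 and -0.27 to 0.60 in Tgtp1 at 0.5 h, and -0.055 to 0.14 in Irgm1, -0.21 to 0.066 in Igtp, -0.45 to 0.10 in Iigp1 and -0.17 to 0.50 in Tgtp1 at 1 h. Tgtp1 minus Tgtp2 ran from -0.044 to 0.072.

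Counts over all genes moved by over 1.5 times in these cases. The difference in response at 0.5 h had 16 calls, 26 after quantile normalisation, 9 with high 18S libraries only, 6 with only the groups compared, and 10 or 9 without LysM-Cre 0.5 h replicate 2 or 3. At 1 h its 169 became 93 with high 18S only and 112 with only the groups compared. FosKO against LysM-Cre at 1 h went from 4708 to 2994, and LPS at 1 h in LysM-Cre from 4970 to 3009, with high 18S only. LPS at 0.5 h in FosKO went from 823 to 301 with only the groups compared and to 542 without FosKO 0.5 h replicate 3. Quantile normalisation moved the share of higher calls by over 10 points in 9 of 15 comparisons, most at 0.5 h of LPS (70.3% to 48.3% in LysM-Cre, 75.2% to 50.5% in FosKO), and TMM in 1 (difference in response at 2 h, 48.5% to 37.6%). The unknown depth of each library leaves the precision of the weak Tgtp1 to the spread between libraries.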
